A study of Mus musculus with 12 samples.

Results

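The genes that cut, protect and cross-link the extracellular matrix were examined by chromatin accessibility in embryonic fibroblasts (MEFs) and embryonic stem cells (mESCs) of the mouse. Members were all protein-coding genes of the GENCODE M21 annotation on GRCm38 whose symbols name a matrix metalloproteinase (Mmp), a tissue inhibitor of metalloproteinases (Timp), an ADAMTS protease or a lysyl oxidase (Lox or Loxl). This gave 50 genes of 21755, namely 22 Mmp, 4 Timp, 19 Adamts and 5 Lox genes. Their peaks were those that overlapped the gene body extended by 5 kb on either side, 237 of 91354 peaks in the BGI peak set and 232 of 87027 peaks in the Illumina peak set. Of the 50 genes, 42 had at least 1 peak on each platform.

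The study assayed 3 libraries of MEFs, numbered 1, 2 and 4, and 3 libraries of mESCs, numbered 1, 3 and 5, by Omni-ATAC-seq, in which the Tn5 transposase places sequencing adapters into accessible DNA. Both cell types came from the C57/Bl6 background. MEFs had been sorted as Thy1+ cells and mESCs as Thy1-, Ssea1+ and Epcam+ cells, and no treatment or genetic change was named for either. Each library was read on 2 instruments, the DNBSEQ-G400 of BGI and the HiSeqX10 of Illumina, so the platforms read the same 6 reactions and gave no independent support of one another. The methods call the 3 libraries of a cell type biological replicates, while the labels do not say which cultures they came from, and p-values measured the spread between these libraries.

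Fibroblasts build and remodel matrix. Matrix metalloproteinases are zinc proteases that are secreted or held at the cell surface and together digest collagens, laminins and many other matrix and signaling proteins, and the Timp proteins block them by binding the active site. ADAMTS proteases are secreted, bind the matrix through thrombospondin repeats, and trim procollagens and proteoglycans. Lysyl oxidases oxidize lysine side chains so that collagen and elastin fibers become covalently linked.

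Sequences are shown for the distal peaks with the largest fold changes, 1 for each gene, because they carry the largest differences described below. They were chosen for their size of change among peaks called in the same direction on both platforms, more than 1 kb from any annotated start site and outside untranslated regions. Each is the central 300 bases of a peak of 502 bases on the plus strand of GRCm38. Capitals mark matches to 7 short motifs searched on both strands, which were AP-1 (TGANTCA), TEAD (ACATTCC), RUNX (AACCACA), octamer (ATGCAAAT), ESRRB (TCAAGGTCA), E-box (CAGGTG) and GC box (GGGCGG). The first 3 sequences were more accessible in mESCs and the last 4 in MEFs.
Mmp20 intron, chr9:7633941-7634240: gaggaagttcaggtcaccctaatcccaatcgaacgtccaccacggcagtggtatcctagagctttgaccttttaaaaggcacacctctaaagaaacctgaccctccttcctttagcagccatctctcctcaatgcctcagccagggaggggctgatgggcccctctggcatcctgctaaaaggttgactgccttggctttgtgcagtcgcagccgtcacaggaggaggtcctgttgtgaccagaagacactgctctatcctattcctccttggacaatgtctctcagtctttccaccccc
Timp1 downstream flank, in an intron of Syn1, chrX:20875276-20875575: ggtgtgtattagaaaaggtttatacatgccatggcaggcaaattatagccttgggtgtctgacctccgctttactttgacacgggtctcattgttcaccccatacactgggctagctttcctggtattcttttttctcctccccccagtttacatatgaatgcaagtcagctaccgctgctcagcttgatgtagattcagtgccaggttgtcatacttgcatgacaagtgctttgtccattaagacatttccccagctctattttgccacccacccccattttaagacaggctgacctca
Adamts9 intron, also in A730049H05Rik, chr6:92843605-92843904: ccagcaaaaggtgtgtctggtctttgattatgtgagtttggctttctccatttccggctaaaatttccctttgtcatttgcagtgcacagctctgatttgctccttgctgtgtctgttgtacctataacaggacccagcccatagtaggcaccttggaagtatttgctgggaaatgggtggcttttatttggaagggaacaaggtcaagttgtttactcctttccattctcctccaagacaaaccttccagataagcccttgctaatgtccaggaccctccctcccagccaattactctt
Adamts16 peak that overlaps an exon, chr13:70779263-70779562: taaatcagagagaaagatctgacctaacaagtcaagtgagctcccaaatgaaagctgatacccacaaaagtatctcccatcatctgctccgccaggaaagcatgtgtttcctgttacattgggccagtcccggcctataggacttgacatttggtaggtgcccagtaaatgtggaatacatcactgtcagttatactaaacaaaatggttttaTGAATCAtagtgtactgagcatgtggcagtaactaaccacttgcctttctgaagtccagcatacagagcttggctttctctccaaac
Mmp16 intron, chr4:17894486-17894785: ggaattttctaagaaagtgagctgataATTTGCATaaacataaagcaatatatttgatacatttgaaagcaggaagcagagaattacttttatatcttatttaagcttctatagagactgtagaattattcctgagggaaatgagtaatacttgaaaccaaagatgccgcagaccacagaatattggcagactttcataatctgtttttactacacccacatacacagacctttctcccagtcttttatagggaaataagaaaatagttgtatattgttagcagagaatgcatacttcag
Adamts17 intron, chr7:66858498-66858797: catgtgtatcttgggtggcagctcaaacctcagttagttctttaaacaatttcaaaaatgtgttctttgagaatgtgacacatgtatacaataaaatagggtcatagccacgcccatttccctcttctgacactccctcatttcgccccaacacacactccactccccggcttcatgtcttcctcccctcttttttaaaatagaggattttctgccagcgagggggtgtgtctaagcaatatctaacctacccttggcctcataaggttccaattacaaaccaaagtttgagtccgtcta
Adamts2 intron, chr11:50669619-50669918: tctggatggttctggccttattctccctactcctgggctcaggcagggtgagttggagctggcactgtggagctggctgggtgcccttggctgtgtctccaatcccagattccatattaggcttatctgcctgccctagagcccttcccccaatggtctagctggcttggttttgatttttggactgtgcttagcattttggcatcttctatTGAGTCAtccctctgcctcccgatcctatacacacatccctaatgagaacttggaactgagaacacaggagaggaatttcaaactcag
The central bases at Adamts16 and Adamts2 each held 1 AP-1 match and those at Mmp16 held 1 octamer match, read on the opposite strand. No motif of the 7 was found in the central bases at Mmp20, Timp1, Adamts9 or Adamts17. A match is a description of the letters, not of a bound factor.

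Depth was even between platforms. The reads counted in the BGI peak set ranged from 20085886 to 21662775 for the MEF libraries and from 15860985 to 16911482 for the mESC libraries, and in the Illumina peak set from 20127546 to 21441767 and from 15996202 to 16958488. Values below are counts scaled to 1000000 reads of a sample in its peak set (CPM), and fold changes are mESC over MEF on the log2 scale, fitted by edgeR's quasi-likelihood test across all peaks with Benjamini-Hochberg adjustment and given with their standard error. A peak or gene was called at an adjusted p under 0.05. As a check of the cell types by the summed counts at their markers, all 10 stem cell markers were higher in mESCs on both platforms, and 9 of 10 fibroblast markers were lower in mESCs, with 1 without a call on BGI and 1 without a peak on Illumina. Of the 6 macrophage and blood markers, 4 had a BGI peak, and their summed CPM ran from 134 to 145 in MEFs and from 166 to 172 in mESCs. This sum was carried by Cd68 (0.87), while Csf1r (-2.63) and Ptprc (-2.39) were lower in mESCs and Spi1 had no call, with a list median of -1.22. Of the 6 endothelial markers, 4 had a BGI peak, with summed CPM from 115 to 126 in MEFs and from 152 to 166 in mESCs. Pecam1 (0.81) and Tek (0.61) were higher and Cdh5 (-1.05) and Kdr (-0.97) lower, with a list median of -0.18. On BGI, 3 of 5 primitive endoderm markers were higher and 2 lower, and 2 of 4 keratinocyte markers were higher and 1 lower. Of 4 muscle markers 1 was higher and 1 lower, and of 3 neural crest and Schwann markers 0 were called. Over all genes tested, 35.4% were higher and 40.4% lower. The part of other cells in the results below was not tested. In bulk samples, fewer cells with an open site and less accessibility per cell cannot be told apart.

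Most member peaks were less accessible in mESCs. On BGI, 148 of the 237 member peaks were lower in mESCs, against 43.2% of all peaks, and 57 were higher, against 40.9% of all peaks. As shares, 62.4% of the member peaks were lower and 24.1% higher, and 32 had no call. The median fold change of the member peaks was -0.72, against -0.08 over all peaks. On Illumina, 143 of 232 were lower (42.4% of all peaks) and 56 higher (42.1% of all peaks), with a median of -0.73 against -0.03. The samples of the cell types did not overlap at 205 member peaks on BGI (85.1% of all peaks) and at 200 on Illumina (85.6% of all peaks), so that the share of separated peaks was near that of all peaks and the direction was not.

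Of the 237 BGI member peaks, 219 had an Illumina peak that covered at least 50% of their width. Both platforms called 182 of these in the same direction and 0 in opposite directions, 7 were called on BGI alone, 7 on Illumina alone and 23 on neither. Of all peaks, 84.1% were called on BGI and 84.5% on Illumina. Agreement was not counted over all peaks and both platforms read the same libraries, so nothing particular to the members is read from it. The authors also deposited lists of reproducible peaks for each cell type. On BGI, 112 of the 237 member peaks were in the MEF list alone, or 47.3% against 32.8% of all peaks, 44 were in the mESC list alone, or 18.6% against 36.4%, and 81 were in both.

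**Figure D1:**
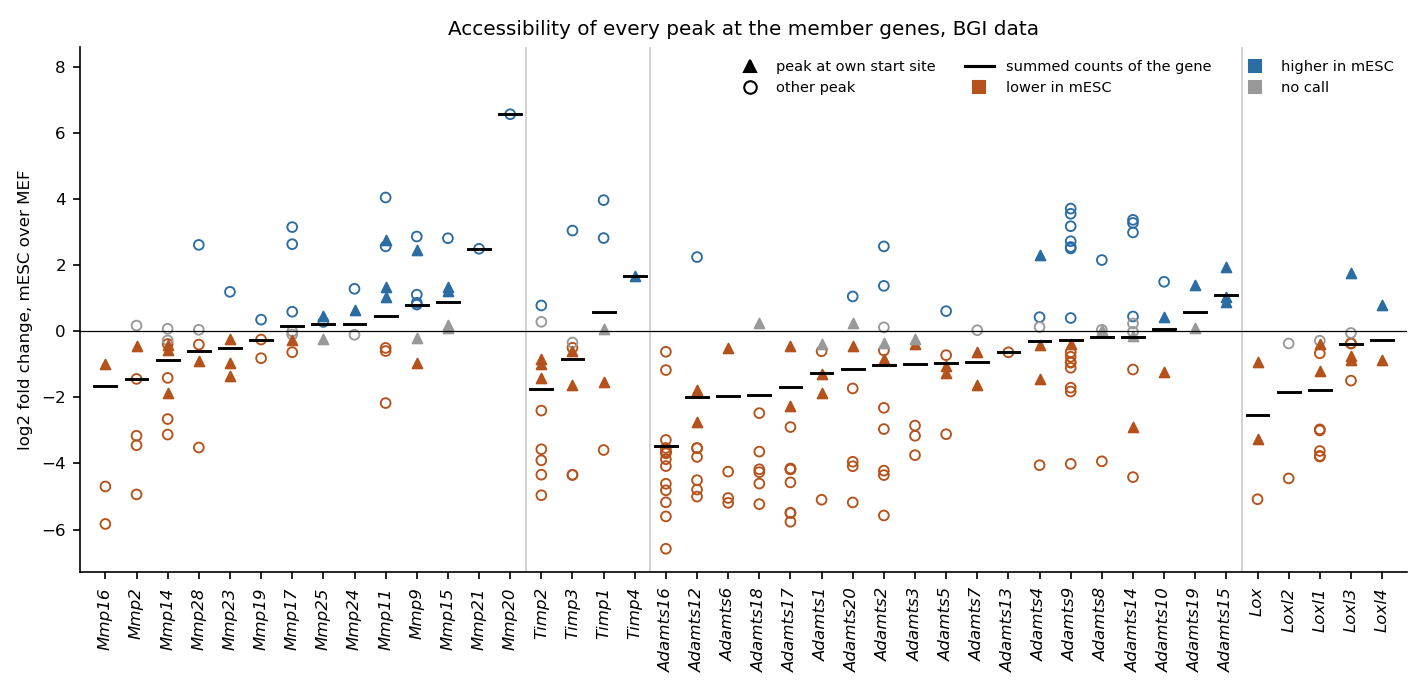
Log2 fold change of mESC over MEF (y axis) for each BGI peak of the 42 genes with a peak (x axis), ordered within the Mmp, Timp, Adamts and Lox families by the fold change of the gene's summed counts, which is the black bar. Triangles are peaks at the gene's own start sites, circles are other peaks, and color gives the call. The lowest circle is at Adamts16 (-6.58) and the highest at Mmp20 (6.57).

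Counts were also summed over the peaks of each gene. On BGI, 28 of the 42 genes with a peak were lower in mESCs, against 40.4% of all genes tested, 12 were higher, against 35.4%, and 2 had no call. On Illumina, 28 were lower (40.7% of all genes), 10 were higher (35.1% of all genes) and 4 had no call. The families differed in their counts, without a test of the difference. Of the 19 Adamts genes, 15 were lower and 2 higher on BGI, and of the 5 Lox genes all 5 were lower on both platforms, with the call of Loxl4 resting on single libraries as given below. Of the 14 Mmp genes with a peak, 8 were higher and 6 lower, and of the 4 Timp genes 2 were higher and 2 lower. Median fold changes of the summed counts were -0.97 for Adamts, -1.77 for Lox, 0.19 for Mmp and -0.12 for Timp genes, against -0.05 over all genes.

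The inhibitors came apart. Timp2, which besides blocking proteases takes part in the activation of gelatinase A at the cell surface, was lower in mESCs over 10 peaks. Its summed CPM was 169.7, 164 and 162 in MEF libraries 1, 2 and 4 and 53.7, 49.8 and 49.6 in mESC libraries 1, 3 and 5, and values are given in this order throughout. The fold change was -1.76 ± 0.07 (adjusted p = 4.52e-19), with 8 peaks lower and 1 higher. At its start site (chr11:118355132-118355633) the CPM was 29.5, 26.5 and 28.3 in MEFs and 17, 16.2 and 15.7 in mESCs, a fold change of -0.86 ± 0.11 on BGI and -0.89 on Illumina. The MEF values were all above the mESC values. Where a gene had several start-site peaks, the one described here and below had the highest mean CPM on BGI, and the others can differ.

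Timp3, the inhibitor that stays bound to matrix and also blocks aggrecan-cleaving proteases, was lower with a summed fold change of -0.83 ± 0.07 (adjusted p = 1.26e-11). Its start-site peak (chr10:86300182-86300683) read 18.5, 18.5 and 19.1 CPM in MEFs and 12.7, 13.2 and 13.2 in mESCs, without overlap (-0.59 ± 0.12, adjusted p = 2.24e-04). Timp1, a secreted inhibitor, was higher by its summed counts (0.59 ± 0.09, adjusted p = 9.10e-07), with 2 peaks higher and 2 lower. It had 2 start-site peaks, 1 of them lower on both platforms, with medians over both peaks of -0.73 on BGI and -0.83 on Illumina. The one with the highest CPM (chrX:20869912-20870413) was open in both cell types. It read 26.4, 25.4 and 24.7 CPM in MEFs and 26.1, 30.9 and 26.8 in mESCs, and the cell types overlapped there. The fold change of 0.07 ± 0.11 on BGI and -0.08 on Illumina had no call (adjusted p = 0.571 and 0.58). Of the 2 higher Timp1 peaks, 1 was exonic in the gene body (2.82) and the other was the flank peak printed above, which lay 4.95 kb from its nearest start site and held counts of 7, 9 and 6 in MEFs and 99, 121 and 70 in mESCs (3.97 ± 0.37). This peak lies in Syn1, a synapsin gene that runs across Timp1 on the other strand, and accessibility alone does not assign it to either gene.

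Timp4 had 1 peak, at its start site (chr6:115252001-115252502), which read 1.52, 2.04 and 2.04 CPM in MEFs against 6.94, 6.27 and 5.59 in mESCs. It was higher in mESCs at 1.68 ± 0.25 (adjusted p = 7.79e-06) on BGI and 1.47 on Illumina. The peak was low in both cell types, was in the reproducible list of mESCs alone, and also lay within 1 kb of a start site of Syn2. Timp3 and Timp4 lie inside Syn3 and Syn2 on the opposite strand, as Timp1 does in Syn1.

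All 5 lysyl oxidase genes were lower in mESCs on both platforms, although Loxl4 kept its BGI call neither under other size factors nor without MEF library 1 or 2 or mESC library 3 or 5 (-0.24 to -0.20). Lox, which cross-links collagen and elastin, had the largest change, with summed CPM of 57.1, 48.4 and 51.1 in MEFs and 9.02, 10.2 and 9.32 in mESCs (-2.52 ± 0.11, adjusted p = 5.59e-18). Its start-site peak read 41.7, 33.4 and 35.6 CPM in MEFs and 3.85, 4.55 and 3.67 in mESCs (-3.26 ± 0.15) on BGI. On Illumina the same site read 36.5, 33.2 and 34.3 and 4.19, 5.01 and 5.15 (-2.90). The lowest MEF value was several times the highest mESC value on either platform. A further start-site peak of Lox on BGI was also lower but changed less (-0.94).

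Loxl1, needed for elastic fibers, had 9 peaks, of which 8 were lower and none higher. Its summed CPM was 188, 179 and 188 in MEFs and 57.1, 58.6 and 55.4 in mESCs (-1.77 ± 0.07). Its start-site peak (chr9:58313004-58313505) changed less, from 28.6, 24.4 and 29.4 to 10.2, 14.7 and 12.3 CPM (-1.21 ± 0.14, adjusted p = 2.32e-07). Loxl2, which links collagen IV of basement membranes, had no peak at its own start sites. The higher of its 2 peaks (chr14:69692351-69692852), at the start site of the microRNA gene Mir6950, read 16.7, 16.4 and 14.8 CPM in MEFs and 0.63, 0.71 and 0.932 in mESCs (-4.45 ± 0.22, adjusted p = 7.97e-12). It was in the reproducible list of MEFs alone.

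Loxl3 and Loxl4, less studied lysyl oxidases, changed less, by -0.38 ± 0.06 and -0.27 ± 0.12 in summed counts. At Loxl3, the start-site peak (chr6:83033868-83034369), shared with Dok1, read 21.5, 21.6 and 20.1 CPM in MEFs and 10.02, 13.8 and 12.5 in mESCs (-0.86 ± 0.14, adjusted p = 1.39e-05). Of the 7 Loxl3 peaks, 6 lay within 1 kb of a start site of another protein-coding gene, so that its sum was largely a sum over shared sites. At Loxl4 (chr19:42612600-42613101), the values were 15.4, 15.4 and 17.1 CPM in MEFs and 9.84, 9.58 and 7.95 in mESCs (-0.87 ± 0.14, adjusted p = 2.27e-05). Neither gene overlapped between cell types at these peaks. The only other Loxl4 peak, also at its own start sites, was higher on BGI (0.79) and without a call on Illumina (0.55). Loxl3 had 3 peaks at its own start sites, 2 lower and 1 higher on both platforms.

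The membrane-type metalloproteinases split, 2 lower and 4 higher on BGI. Mmp14, which activates gelatinase A and digests fibrillar collagen at the cell surface, was lower over 9 peaks, 7 of them lower and none higher (-0.86 ± 0.07, adjusted p = 2.52e-12). Its start-site peak (chr14:54431286-54431787) read 27.1, 23.4 and 24.4 CPM in MEFs and 7.94, 6.74 and 6.71 in mESCs on BGI (-1.88 ± 0.14). On Illumina it read 22, 22 and 22.3 against 7.44, 6.78 and 8.56 (-1.59). All 3 start-site peaks of Mmp14 were lower on both platforms, with medians of -0.56 on BGI and -0.51 on Illumina. Mmp16, a collagen-cleaving membrane-type enzyme, read 16.3, 16.8 and 19.2 and 7.82, 8.34 and 11.1 CPM at its start site (chr4:17853068-17853569, -1.01 ± 0.15). Its intronic peak printed above held counts of 135, 109 and 124 in MEFs and only 3, 0 and 2 in mESCs, 39.1 kb from the start site (-5.83 ± 0.47, a fitted value that rests on 5 mESC reads).

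Mmp15, Mmp17, Mmp24 and Mmp25 are membrane-type enzymes that were higher in mESCs in summed counts on BGI, at 0.89, 0.16, 0.23 and 0.21. Mmp17 lost its call on Illumina (0.04, adjusted p = 0.528), while Mmp15, Mmp24 and Mmp25 were called on both. On BGI, Mmp24 lost its call without MEF library 2 or mESC library 5 (0.18 and 0.17), Mmp25 without MEF library 1 or mESC library 1 or 5 (0.18 to 0.19), and Mmp17 without MEF library 2 or mESC library 5 (0.11 and 0.14). On Illumina, Mmp24 lost its call without any of MEF libraries 1 and 2 and mESC libraries 3 and 5 (0.10 to 0.16). At Mmp24, whose product is best known from neural tissue, the start-site peak (chr2:155775532-155776033) read 12.5, 12.7 and 12.6 CPM in MEFs and 17.8, 22.6 and 21.9 in mESCs (0.65 ± 0.13, adjusted p = 1.62e-04), without overlap. At Mmp17, anchored by a lipid tail, the start-site peak (chr5:129583904-129584405) read 29.3, 24.1 and 31.4 and 23.4, 24.7 and 25.3 CPM with overlap. Its fold change of -0.27 ± 0.11 passed the threshold (adjusted p = 0.0295), in the direction opposite to the gene's sum, and lost the call when any of MEF libraries 1 and 4 or mESC libraries 1, 3 and 5 was left out.

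The gelatinases, which digest denatured collagen and collagen IV, moved apart in their summed counts. Mmp2 (gelatinase A) was lower over 6 peaks, with summed CPM of 61.3, 67.6 and 54.4 in MEFs and 26.1, 21.9 and 22.9 in mESCs (-1.44 ± 0.10, adjusted p = 1.10e-13). Mmp9 (gelatinase B) was higher over 7 peaks, its summed CPM being 45.3, 42.5 and 51.2 in MEFs against 90.9, 82.2 and 81.3 in mESCs (0.81 ± 0.08, adjusted p = 2.41e-10). On Illumina the values were -1.14 and 0.91. Neither gene's sum overlapped between cell types, and each had 5 peaks called in its main direction on BGI. The start sites differed less. Mmp9 had 3 start-site peaks, 1 higher and 1 lower on each platform, with a median of -0.21 on BGI and -0.05 on Illumina. All 4 of its distal peaks were higher on both. The start-site peak of Mmp2 was lower on BGI (-0.44) and without a call on Illumina (-0.27).

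Among the other metalloproteinases, Mmp11, a stromelysin activated by furin inside the cell, was higher (0.46 ± 0.07, adjusted p = 4.96e-07). Its start-site peak (chr10:75935599-75936100), shared with Chchd10, read 11, 9.69 and 10.8 CPM in MEFs and 28.4, 28 and 27.6 in mESCs (1.35 ± 0.12 on BGI, 1.35 on Illumina). The largest gain at this gene was 4.05 ± 0.33 at a start site of Gm867, 4.46 kb from the nearest Mmp11 start site, and 7 of its 8 peaks lay at start sites of other protein-coding genes. Mmp19, Mmp23 and Mmp28 were lower in summed counts at -0.26, -0.52 and -0.61. Mmp21, known for its part in left-right patterning, had 1 peak, which was higher (2.49 ± 0.22, adjusted p = 2.89e-11).

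Mmp19, an enzyme that acts on basement membrane, had no peak at its own start sites. All 3 of its peaks lay at start sites of other genes, so that its sum was a sum over such sites. Its highest peak (chr10:128805230-128805731), at start sites of Dnajc14 and Tmem198b, read 56.8, 53.2 and 56 CPM in MEFs and 42.1, 53.2 and 50.8 in mESCs (-0.25 ± 0.10, adjusted p = 0.0226), a call that was lost without MEF library 1 (-0.18) or mESC library 1 (-0.16). Mmp23, a membrane-anchored enzyme without the usual hemopexin domain, had 3 start-site peaks. All 3 were lower on BGI (median -0.97) and 2 were lower on Illumina (median -0.74). The one with the highest CPM (chr4:155654315-155654816) read 25.5, 24.7 and 24.6 CPM in MEFs and 21.1, 21.3 and 23.9 in mESCs. That fold change of -0.24 ± 0.10 was called on BGI (adjusted p = 0.0402) and not on Illumina (-0.11, adjusted p = 0.368), and on BGI it was lost without MEF library 1 or 2 or mESC library 1 or 3 (-0.25 to -0.17).

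The 8 members without a peak on either platform were all in 1 cluster. Mmp13, Mmp12, Mmp1b, Mmp3, Mmp10, Mmp8, Mmp27, Mmp20 and Mmp7 lie within 427 kb (chr9:7272514-7699585), and of these 9 genes only Mmp20 had a peak in its window. Besides Mmp1b, the cluster holds the collagenases Mmp8 and Mmp13, which cut fibrillar collagen, and the stromelysins Mmp3 and Mmp10. It also holds the matrilysin Mmp7 and the macrophage elastase Mmp12. The share of genes without a BGI peak was 16% among members and 21% among all protein-coding genes.

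Mmp20, the enamelysin of developing teeth, had the highest positive fold change of all member peaks. Its intronic peak (chr9:7633840-7634341) held counts of 5, 1 and 2 in the MEF libraries and 247, 211 and 199 in the mESC libraries on BGI (6.57 ± 0.34, adjusted p = 1.23e-11), 5.61 kb from the start site. In CPM these were 0.231, 0.0497 and 0.0996 against 15.6, 12.5 and 12.4. The Illumina values were 0.653, 0.0994 and 0.345 and 12.4, 11.4 and 9.99 CPM (4.85), and the unequal sizes rest on few MEF reads and had no call in the comparison of platforms given last. The groups did not overlap on either platform.

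The MACS2 calls of single samples, made at a loose threshold, gave a finer view of the cluster. Over the windows of the 8 genes without a peak, and with a summit counted once for each window it lay in, each MEF sample had 14 summits on BGI and 15 on Illumina, with a −log10 p of at most 16.8 and 17.97, while the mESC samples had 0 to 1 and 0 to 2 summits with at most 8.26 and 7.55. At Mmp8 and Mmp27, the strongest MEF summits reached a −log10 p of 16.8 in library 1 on BGI and 17.97 in library 4 on Illumina, and no mESC sample had a summit there. At Mmp3 they reached 13.0 in MEF library 4 on BGI and 17.97 on Illumina, again with none in mESCs. At Mmp20 the strongest mESC summits ran from 63.4 to 83.6 on BGI. The windows of Mmp8 and Mmp27 overlap and share summits. The MEF samples had been down-sampled to 60000000 reads and the mESC samples to 45000000. Neither the number of summits nor the −log10 p is scaled for depth, so they are not on the same scale in the cell types.

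**Figure D2:**
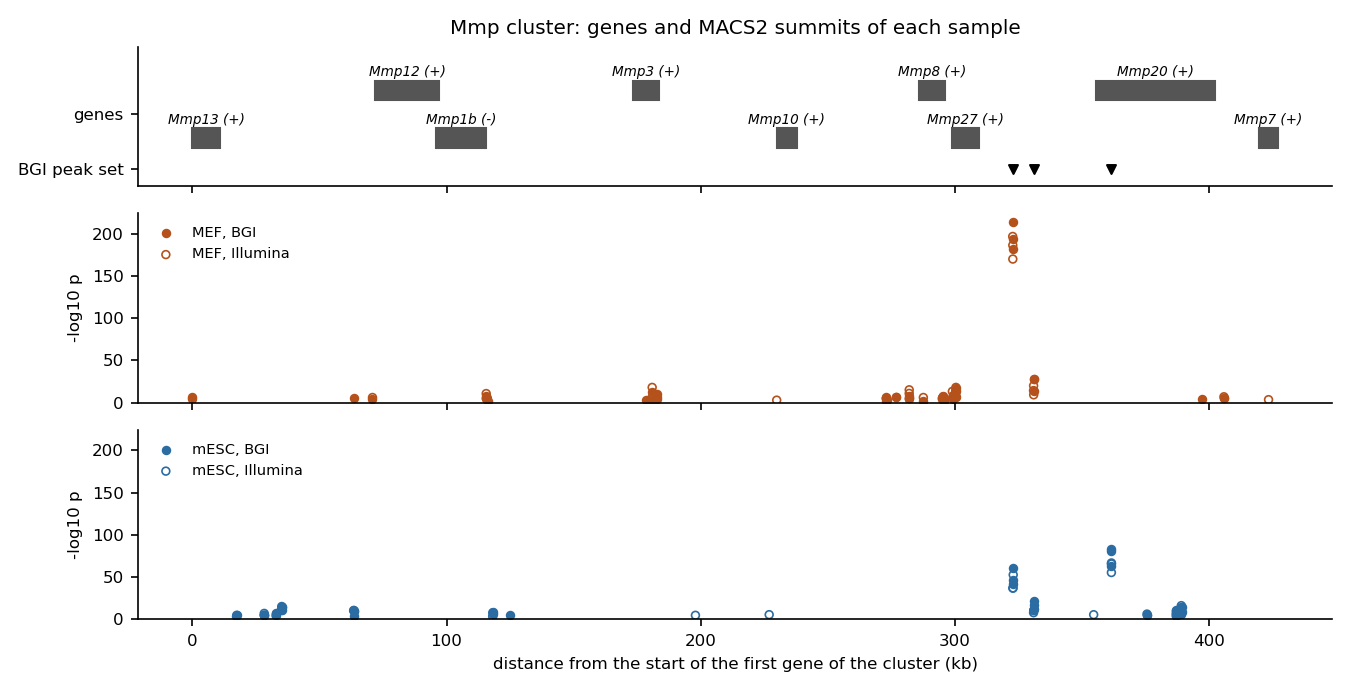
The metalloproteinase cluster, with distance from the start of its first gene in kb on the x axis. The top row gives genes with their strand and triangles for the BGI peak set, and the lower rows give the −log10 p of each MACS2 summit in the MEF (middle) and mESC (bottom) samples, filled for BGI and open for Illumina. The strongest summits at Mmp20 are in mESCs (55.2 to 83.6), MEF summits there reach at most 6.83, and the highest MEF summits lie at 323 kb, in the window of no member. The −log10 p is not scaled for depth, which was set higher in MEFs than in mESCs.

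The proteoglycan-cleaving ADAMTS genes were 5 lower and 1 higher of 7 on BGI. Adamts1 (-1.28 ± 0.07, adjusted p = 2.18e-15), Adamts5 (-0.97 ± 0.09) and Adamts20 (-1.13 ± 0.08) changed most among the lower ones, with summed CPM at Adamts1 of 106, 101 and 99.8 in MEFs and 42.2, 44.9 and 45.3 in mESCs. Adamts5 is the main aggrecanase of mouse cartilage, and Adamts1 and Adamts20 cut versican. Adamts15, another versican-cleaving protease, was the member of this group that was higher (1.11 ± 0.10, adjusted p = 6.34e-11), with all 3 of its peaks higher on both platforms. Its summed CPM was 18.9, 20.3 and 25.6 in MEFs and 47.7, 49.7 and 48.3 in mESCs. Adamts8 had no call on BGI (-0.18, adjusted p = 0.0584) and was lower on Illumina (-0.21, adjusted p = 0.0294), a call that was lost without any of MEF libraries 1 and 2 and mESC libraries 1 and 5 (-0.21 to -0.15), while on BGI it was gained without MEF library 4 (-0.24).

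Adamts4, an aggrecanase, was lower in its summed counts (-0.28 ± 0.06, adjusted p = 2.03e-04), with 2 peaks higher and 3 lower. Adamts9, a versicanase with the most peaks of any member, had 16, of which 7 were higher and 9 lower on both platforms, and a sum that was lower by a small amount (-0.27 ± 0.06). Its start-site peak (chr6:92943385-92943886) read 28.3, 24.8 and 28.5 and 22.3, 23.5 and 19.1 CPM (-0.40 ± 0.11, adjusted p = 0.00403). At the intronic site printed above the counts were 6, 15 and 16 in MEFs and 114, 170 and 123 in mESCs (3.71 ± 0.33), and at an exonic site 7.85 kb from a start site they were 13, 15 and 16 and 115, 141 and 176 (3.55 ± 0.28). Sites more open in mESCs and sites more open in MEFs thus lay in the window of 1 gene of 171 kb.

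The procollagen N-proteinases, which remove the amino-terminal propeptide of fibrillar collagens, were Adamts2 (-1.02 ± 0.07), Adamts3 (-1.01 ± 0.09) and Adamts14 (-0.16 ± 0.07). The first pair was lower on both platforms, and Adamts14 was lower on BGI (adjusted p = 0.0261) and without a call on Illumina (-0.12, adjusted p = 0.0852). The BGI call of Adamts14 was lost without MEF library 1 or mESC library 3 or 5 (-0.16 to -0.10), and also with RLE size factors (-0.12, edgeR adjusted p = 0.0866) and with DESeq2 (-0.12, adjusted p = 0.0980), and on Illumina a call was gained without MEF library 4 or mESC library 5 (-0.19 and -0.16). Adamts2 read 25.6, 25.7 and 33 CPM in MEFs and 14.4, 18.3 and 16.2 in mESCs at its start site (chr11:50601732-50602233, -0.85 ± 0.13), shared with Gm12198. At its intronic peak printed above, 67.4 kb from the start site, counts were 341, 284 and 431 in MEFs and 5, 7 and 6 in mESCs (-5.58 ± 0.27, adjusted p = 6.00e-12). At Adamts14, 1 of 2 start-site peaks was lower on BGI (median -1.53) and all 3 on Illumina (median -1.73). The one with the highest CPM (chr10:61273085-61273586) read 15.4, 16.4 and 21.5 and 16.6, 16.1 and 17.4 CPM with overlap on BGI (-0.15 ± 0.13, adjusted p = 0.299). On Illumina it read 21.4, 22.6 and 24.1 against 17.8, 18.4 and 18.3 without overlap (-0.37, adjusted p = 0.00342).

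Adamts7 (-0.93 ± 0.10) and Adamts12 (-2.003 ± 0.11), which cut cartilage oligomeric matrix protein, were lower, and so was Adamts13, the von Willebrand factor protease, whose 1 peak was at the start site of Cacfd1 (-0.64 ± 0.09). Adamts12 had summed CPM of 78.2, 72.9 and 65.4 in MEFs and 18.2, 22.4 and 15.8 in mESCs, with 8 of its 9 peaks lower. Among the remaining genes, Adamts6 (-1.97), Adamts16 (-3.47), Adamts17 (-1.69) and Adamts18 (-1.92) were lower on both platforms. Adamts10, which binds fibrillin microfibrils, had no call on either (0.06 and -0.07), and on Illumina without MEF library 4 it was lower (-0.22, edgeR adjusted p = 0.0380). Adamts19 was higher on BGI (0.58, adjusted p = 4.21e-05) and without a call on Illumina (0.19, adjusted p = 0.121).

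Adamts16 was lower at every peak. All 14 of its BGI peaks and all 11 of its Illumina peaks were lower in mESCs, with summed CPM of 173, 167 and 158 in MEFs and 13.7, 14.1 and 19.4 in mESCs (-3.47 ± 0.09, adjusted p = 3.80e-22). None of its peaks was at its own start sites. Its highest peak (chr13:70724475-70724976), in the downstream flank of the gene, read 30.5, 29.5 and 31.9 CPM in MEFs and 0.946, 0.887 and 0.808 in mESCs (-5.18 ± 0.17). That flank peak was classed as intronic outside the body of Adamts16, so it lay in another annotated gene. Accessibility alone does not assign it to either gene. The peak printed above overlapped an exon 62.1 kb from the nearest start site and held counts of 478, 396 and 440 in MEFs and 2, 5 and 4 in mESCs (-6.58 ± 0.25), the most negative fold change of all member peaks on BGI. On Illumina it read -5.57, and the most negative was -7.31 at the Adamts17 peak described next, where the mESC counts were 3, 0 and 0. An intronic peak of Adamts16 held 247, 183 and 180 and 10, 0 and 0 (-5.603 ± 0.51), so that all of its mESC reads were in library 1.

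Adamts17, linked with fibrillin-rich tissue, had 10 BGI peaks, all lower. Both of its 2 BGI start-site peaks were lower, with a median of -1.36, and 2 of 3 on Illumina, with a median of -0.43. The one with the highest CPM (chr7:66839359-66839860) changed less, from 44.8, 42.7 and 52.5 CPM in MEFs to 34.3, 36.8 and 35.3 in mESCs (-0.46 ± 0.10, adjusted p = 2.46e-04). The intronic peak printed above, 8.69 kb away, held counts of 182, 134 and 232 in MEFs and 2, 4 and 2 in mESCs (-5.77 ± 0.39). That start-site peak was thus open in both cell types without overlap of the values, while the intronic peak was open in MEFs.

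**Figure D3:**
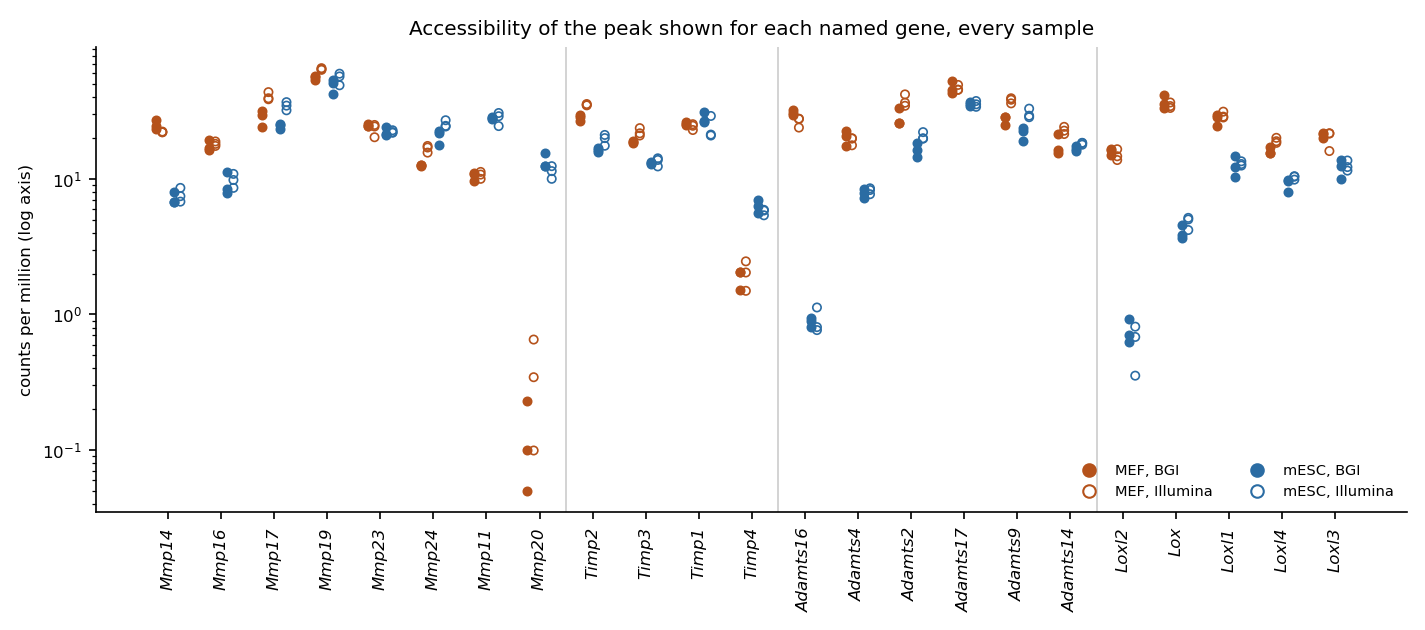
CPM on a log axis (y) for the peak shown for each of 23 genes (x), with every MEF sample in brown and every mESC sample in blue, filled for BGI and open for Illumina. The values of the cell types lie furthest apart at Mmp20, Adamts16 and Loxl2 and overlap on BGI at Timp1, Mmp17 and Adamts14.

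Start-site and distal peaks of the same genes were set side by side. On BGI, 60 of the 74 peaks at a member's own start sites were called, 43 lower (58.1% against 41.0% of all promoter peaks) and 17 higher (23.0% against 31.3%), with a median fold change of -0.42, and for all promoter peaks the median was -0.13. Of the 135 member peaks away from any start site, 88 were lower (65.2% against 44.3% of all such peaks) and 36 higher (26.7% against 45.5%), with a median of -2.96 against 0.04 over all peaks of that kind. Intronic member peaks, in an intron of any annotated gene, were lower in 72 of 91 cases (79.1% against 48.3% of all intronic peaks), with a median of -3.57 against -0.27, and 13 of 29 exonic member peaks were higher (44.8% against 56.8% of all exonic peaks). Over the 31 genes with both kinds, the median of the distal peaks was larger in size than that of the start-site peaks in 26 (83.9%), against 77.4% of the 10427 protein-coding genes with both kinds. The distal median passed 1 in size in 22 of the 31 member genes and the start-site median in 10. This was not counted over all genes, so nothing particular to the members is read from it. Over all BGI peaks, the quartiles of the fold change were -0.61 and 0.61 at promoters and -2.63 and 2.51 away from them. On Illumina the larger distal size held in 23 of 30 genes (76.7%, against 77.2% of all 10236). Peaks of 1 gene share its locus and were not counted as replicates.

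**Figure D4:**
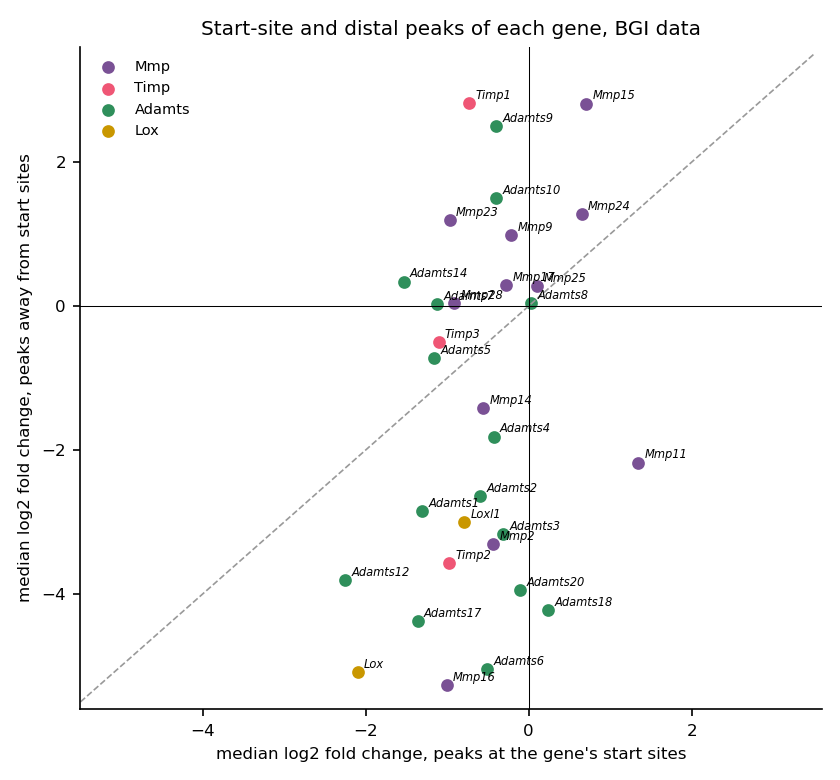
Median log2 fold change, mESC over MEF, of the peaks at a gene's own start sites (x) and of its peaks away from any start site (y) on BGI, for the 31 genes with both. The dashed line marks equal values. Timp1 and Adamts9 lie above 2 on the y axis and below 0 on the x axis, and Adamts18 lies the other way round, near -4 on the y axis and above 0 on the x axis.

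Peaks of 1 gene could be called in opposite directions. On both platforms, 17 of the 42 genes had at least 1 peak called higher and 1 called lower (40.5%), about the share over the 17003 protein-coding genes with a peak on both (40.3%), so that nothing particular to the members is read from it. On BGI the counts of higher and lower peaks were 7 and 9 at Adamts9, 4 and 3 at Adamts14, 2 and 7 at Adamts2, 2 and 3 at Adamts4, 1 and 8 at Adamts12, 1 and 5 at Adamts20, 1 and 1 at Adamts8, and 2 and 1 at Adamts10. They were 5 and 3 at Mmp11, 5 and 1 at Mmp9, 3 and 2 at Mmp17, 1 and 3 at Mmp28, and 1 and 2 at Mmp19. For the inhibitors they were 2 and 2 at Timp1, 1 and 8 at Timp2, and 1 and 5 at Timp3, and at Loxl3 they were 1 and 5. Adamts14 had 4 distal peaks higher and 2 lower, with single peaks from -4.41 to 3.37. These loci held sites open in either cell type within 1 window.

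The 7 motifs were counted in whole peaks of 502 bases. Among BGI member peaks away from start sites, AP-1 letters were in 44.3% of the 88 that were lower in mESCs and in 16.7% of the 36 that were higher. The shares over all such peaks were 44.2% of 27233 and 20.4% of 27982, and 31.1% of all 61483 peaks of that kind held AP-1 letters, so that the members had about the share of all peaks in their direction. E-box letters were in 19.3% of the lower and 44.4% of the higher member peaks, against 18.6% and 42.7% of all. TEAD letters were in 15.9% and 13.9% (18.1% and 10.3% of all), RUNX letters in 13.6% and 11.1% (15.6% and 10.2%), and GC box letters in 14.8% and 25% (12.7% and 21.4%). Octamer letters were in 4 of the 88 lower and 1 of the 36 higher member peaks, and ESRRB letters in 1 of each, too few to compare. AP-1 and TEAD are factors with a known place in fibroblasts, and octamer and ESRRB sites are read by pluripotency factors.

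**Figure D5:**
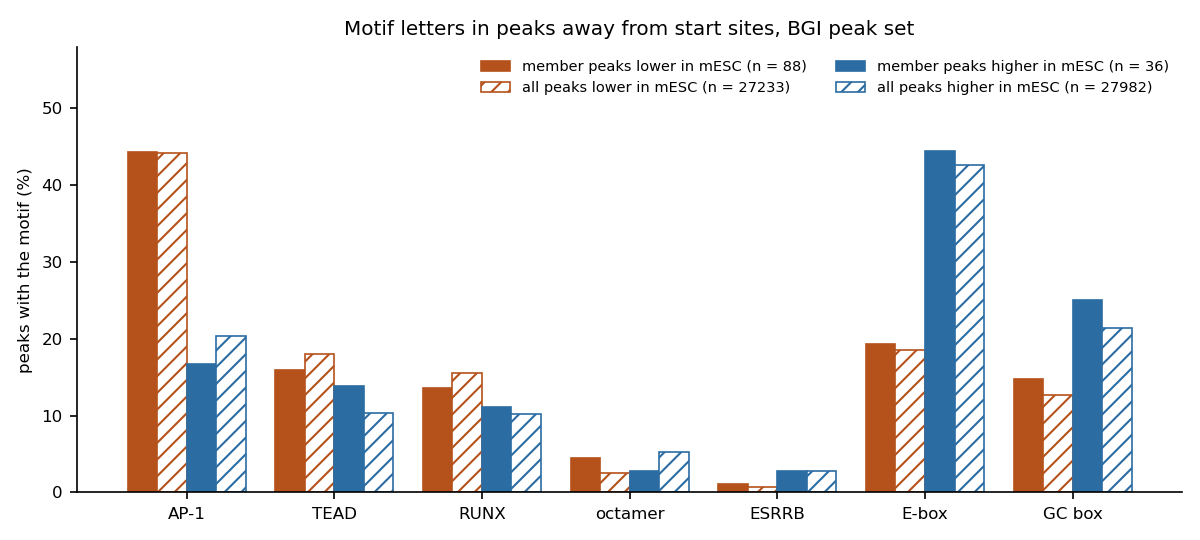
Share of BGI peaks away from start sites that held each motif (y axis, percent), for member peaks (solid bars) and all peaks (hatched bars), lower (brown) or higher (blue) in mESCs. AP-1 letters were in 44.3% of the lower and 16.7% of the higher member peaks, and the hatched bars beside them were at 44.2% and 20.4%.

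Base composition was compared between the same classes on BGI. Away from start sites, the median GC content was 48.6% for member peaks lower in mESCs and 53.5% for those higher, against 47.0% and 50% for all peaks. At start sites, the member peaks without a call had the highest median, 64.5%, against 57.8% for the higher and 58.8% for the lower ones, and over all promoter peaks the medians were 61.6%, 56.2% and 58.6%. On Illumina the member medians at start sites were 61.2%, 59.96% and 59.8%.

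Other matrix genes were counted in the same way from a list of 55. On BGI, 34 of the 52 with a peak were lower in mESCs (40.4% of all genes) and 12 higher (35.4% of all genes). On Illumina, 36 were lower (40.7% of all genes) and 13 higher (35.1% of all genes). The medians were -0.49 on both platforms, against -0.05 over all genes. The smaller groups below were not tested against these shares. Of the 9 membrane ADAM proteases, 5 were lower and 2 higher, with Adam12, a protease of mesenchymal cells, at -2.14. In the plasminogen system 5 of 7 were lower on both platforms, among them the activators Plau (-0.94) and Plat (-1.80). Among other matrix proteases, 9 of 12 were lower, with the collagen-cutting cathepsin Ctsk at -3.77 and the fibroblast activation protein Fap at -3.65, and Mep1b, a meprin, was higher (5.37). The collagen-modifying enzymes were 6 lower and 3 higher of 10, among them the collagen hydroxylases P4ha3 (-2.50) and Plod2 (-1.87), lower, and the transglutaminases Tgm1 (2.37) and Tgm2 (0.68), higher.

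Of the 5 ADAMTS-like genes, which resemble ADAMTS proteins without the protease part, 4 were lower, from Adamtsl3 (-2.52) and Adamtsl2 (-2.31) to Adamtsl5 (-0.23), and Adamtsl4 was higher (0.93). The inhibitors and activators were 4 lower and 3 higher of 9 on BGI, near the shares over all genes. Among them, Reck, a membrane inhibitor of metalloproteinases, was at -0.50, and Furin, which activates many metalloproteinases, at -0.52. Of the 3 heparan sulfate editing enzymes, Hpse (0.37) and Sulf2 (0.78) were higher and Sulf1 lower (-0.20).

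The fold changes of the members were finally compared between platforms in 1 fit of all 12 samples on the BGI peak set. No member peak was called by edgeR's quasi-likelihood test as different between platforms when the library was not a term in the fit (0 of 237, with 0% of all peaks called and 5 member peaks, or 2.11%, at an unadjusted p under 0.05 against 2.61% of all). With the library as a block, which the design allows because each library was read on both platforms, 1 member peak was called, against 0.386% of all peaks, and 33 had an unadjusted p under 0.05 (13.9%, against 13.2% of all peaks). That peak lay upstream of Adamts1 (chr16:85804216-85804717), and its log2 ratio of the BGI to the Illumina fold change was 0.54 ± 0.13 (adjusted p = 0.0317). On BGI it read 19.4, 17.2 and 15.2 CPM in MEFs and 10.3, 11.0 and 14.4 in mESCs, and on Illumina 19.2, 19.0 and 18.3 against 8.05, 11.0 and 9.84. It was lower in mESCs on both platforms.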

How the data were processed

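The files were made by the authors, who aligned reads to GRCm38 with Bowtie2, removed duplicates, mitochondrial reads and reads of low mapping quality, and down-sampled each sample to 60000000 (MEF) or 45000000 (mESC) reads. MACS2 then called summits per sample, and the deposited −log10 p of each summit comes from that call, without a local background. Summits were widened to peaks of fixed width, kept where reproducible and merged over both cell types of a platform, and the authors counted reads per peak, so the deposited counts are raw whole numbers. Down-sampling sets depth apart by cell type, and a peak exists only where a caller found one in at least 1 cell type.

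Members, gene lists and motifs were chosen with earlier results of these data known. Each table was fitted whole with edgeR 4.0.16 in R 4.3.3 (TMM, default filter on low counts, quasi-likelihood test, two-sided, Benjamini-Hochberg over all peaks or genes, threshold 0.05). For genes, counts were summed over peaks in the gene body and 5 kb on either side. Promoters were 1 kb either side of a start site. On simulated counts with 200 features changed by 1 on the log2 scale, the mESC against MEF fits recovered 87.5% of the changed set among 91354 BGI peaks. They recovered 88.5% among 87027 Illumina peaks and 100% in both gene tables (17179 and 17135 genes), with the right sign throughout. False calls were 16 among BGI peaks, 7 among Illumina peaks and 11 in each gene table. The simulation had 1 dispersion for all features, no scaling between samples and few changed features, so recovery in the real tables can differ. Values in every sample are given for all Timp and Lox genes, the 6 Mmp and the 6 Adamts genes with the highest mean summed CPM, and the genes of the 5 most positive and 5 most negative peaks called on both platforms. The peak shown for a gene is its highest start-site peak, or its highest peak where it had none. The start-site peak of Adamts4 is not described here.

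Columns without a platform suffix were taken as Illumina. As a check, the ratio of the BGI to the unsuffixed count of each library was set against the ratio of the −log10 p of its BGI and Illumina summits, with Spearman rho of 0.669 to 0.712 across peaks, which are not independent replicates. No column was left unused (0). Samples of 1 library on both platforms deviated together from their cell type's mean (r of 0.362 to 0.575, against -0.393 to -0.0119 for different libraries), because each library was read on both. The cell types share only library number 1 and were not paired. Alternatives were other size factors, DESeq2 1.42.0, fixed library sizes, other filters, windows and fold limits, the other platform's columns and leaving out each library. The authors' peak sets of 1 cell type over both platforms were not used here.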

Additional observations from a re-analysis of the deposited data

Results flagged for a closer look

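The peak upstream of Adamts1 (chr16:85804216-85804717) was singled out because its mESC against MEF fold change differed between platforms in the fit with the library as a block. The log2 ratio of the BGI to the Illumina fold change was 0.54, with log2 fold changes of -0.61 on the BGI and -1.02 on the Illumina peak set. Without the block the ratio was also 0.54 and had no call by edgeR's quasi-likelihood test. A cause was not tested.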

How the results depend on the processing

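Of the recomputed counts, 148 stayed within 1.5 times the main value and 7 did not. A window of 20 kb gave 99 higher member peaks on BGI and 95 on Illumina. A log2 fold change of at least 1 left 4 higher and 15 lower genes on BGI, and 3 and 14 on Illumina. With the library pairing as a block, 1 member peak differed between platforms in place of 0. Leaving out 1 library gave 49 to 56 higher and 142 to 147 lower peaks on BGI, 51 to 56 and 138 to 145 on Illumina, 9 to 12 higher and 26 to 29 lower genes on BGI, 9 to 10 and 27 to 30 on Illumina, 53 to 58 and 53 to 59 start-site peaks called, and 0 to 0 peaks that differed between platforms. Setting the library sizes to the authors' down-sampled read numbers moved the median of all peaks by 0.14 on BGI and 0.13 on Illumina, and gave 60 higher and 135 lower member peaks on BGI and 60 and 132 on Illumina. Under that scaling the BGI sums of Adamts4, Adamts9, Adamts14, Loxl4 and Mmp19 had no call. On Illumina those of Adamts8, Adamts9 and Mmp19 had no call either, and Adamts19 (0.32, adjusted p = 0.0114) and Mmp17 (0.17, adjusted p = 0.0391) were called higher. The start-site peak shown for Timp1 read -0.0715 with the Illumina columns on the same peaks and had no call either way, and that shown for Adamts14 gained a call there (-0.32). Of the other values of named peaks, 331 kept direction and call and 19 lost the call, at Mmp17, Mmp19, Mmp23 and, under fixed library sizes, Adamts9. The cause was not tested. Peaks with few reads in 1 cell type, such as those at Mmp20 and Mmp16, have fold changes that depth limits.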
